A study of Mus musculus with 9 samples.

Results

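The 10 genes described here are targets of the transcription factor p53 or inhibitors of cell division: Cdkn1a, Cdkn1b, Btg1, Btg2, Gadd45a, Gadd45b, Gadd45g, Mdm2, Ccng1 and Sesn1. They were chosen by symbol, with earlier results of these data known, and all 10 were found once each among the 15109 genes of the deposited tables. RNA came from cultured mast cells of wild-type C57BL/6 mice (BMMC, grown from bone marrow for at least 4 weeks with 20% serum and 30% medium conditioned by WEHI-3 cells), in 3 groups of 3 libraries. Control cells were untreated. BSA cells were sensitised with anti-DNP-IgE and then stimulated with DNP-BSA, the antigen that crosslinks this antibody on its receptor. Taxinine cells had the same sensitisation and antigen, with taxinine, a taxane-type compound of yew, added for 1 h before the antigen. Neither a dose, a vehicle, the length of antigen exposure nor a group given taxinine without antigen is stated, and the labels do not say whether replicates were separate animals or cultures. A p-value here thus speaks to the scatter among libraries, and this may be technical only.

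p53 is a transcription factor that is stabilised by DNA damage and other stress and switches on genes that halt the cell cycle, repair DNA or start cell death. Mdm2, itself a target, marks p53 for degradation and closes a feedback loop. Several of the genes also answer to signals other than p53, among them growth factor, calcium, cyclic AMP and cytokine signals for the immediate early gene Btg2 and for the GADD45 genes, and FOXO factors for Cdkn1b and Sesn1. Mast cells are long-lived tissue cells that release histamine, proteases and cytokines when antigen crosslinks IgE on their surface.

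Promoter windows of 300 bases, 250 before and 50 after each RefSeq transcript start (build GRCm38.p6), were found for all 10 genes, with 12 windows in all since Cdkn1a and Sesn1 have a pair of starts each. The 4 shown carry a p53 element or an element of cyclic AMP signalling, in the pair of genes that, as given further on, changed with taxinine (Ccng1 and Btg1) and in those with the largest log2 rises after antigen (Btg2 and Cdkn1a). Bases before the start are printed 5′ to 3′ on the strand of the gene, without bases of annotated exons. Capitals mark the p53 element in Cdkn1a (chr17:29090729-29090975) and Ccng1 (chr11:40755312-40755536), the motif TGACGTCA in Btg2 (chr1:134079156-134079405) and TGACG, read on the other strand, in Btg1 (chr10:96616751-96617000).
Cdkn1a: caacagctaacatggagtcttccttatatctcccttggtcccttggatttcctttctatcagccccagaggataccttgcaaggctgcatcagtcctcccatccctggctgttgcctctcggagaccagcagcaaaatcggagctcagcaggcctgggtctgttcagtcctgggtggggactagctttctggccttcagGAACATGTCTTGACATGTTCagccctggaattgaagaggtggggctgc
Ccng1: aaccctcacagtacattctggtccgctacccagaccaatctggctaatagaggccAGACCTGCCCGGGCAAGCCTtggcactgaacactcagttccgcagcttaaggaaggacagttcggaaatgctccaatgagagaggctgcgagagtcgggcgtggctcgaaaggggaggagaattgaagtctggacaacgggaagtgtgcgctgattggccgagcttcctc
Btg2: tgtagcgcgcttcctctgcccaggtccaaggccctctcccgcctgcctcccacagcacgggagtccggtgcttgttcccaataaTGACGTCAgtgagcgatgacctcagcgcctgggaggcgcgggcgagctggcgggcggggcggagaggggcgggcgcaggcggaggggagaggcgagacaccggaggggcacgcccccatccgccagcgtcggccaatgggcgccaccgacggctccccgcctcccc
Btg1: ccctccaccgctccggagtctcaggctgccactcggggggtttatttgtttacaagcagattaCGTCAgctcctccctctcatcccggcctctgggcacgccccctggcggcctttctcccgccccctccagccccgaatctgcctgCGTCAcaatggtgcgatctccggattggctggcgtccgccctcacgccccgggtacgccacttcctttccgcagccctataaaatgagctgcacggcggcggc

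The p53 element, taken as its 20-base consensus with at most 1 mismatch, a definition chosen after these sequences had been read, was in 2 of the 12 windows and in 0.0883% of 32851 windows of all genes. It lies at positions -51 to -32 from the upstream start of Cdkn1a and at -195 to -176 in Ccng1. The consensus is a 10-base unit written 2 times. An exact match of 1 such unit was in 5 of the 12 windows and in 8.36% of all. These were the same windows of Cdkn1a and Ccng1, and those of Gadd45a, Mdm2 and the downstream start of Sesn1. TGACGTCA, the cyclic AMP response element, was found once, at -166 to -159 in Btg2, and in 1.79% of all windows. Its core TGACG, counted on both strands and contained in that element, was in 5 of the 12 windows and in 20.8% of all. These were Btg2, Btg1 (at 2 positions), Mdm2, Cdkn1b and the downstream start of Sesn1. Windows of Mdm2, Cdkn1b and Sesn1 are not printed, since those shown were picked by their changes. GCGNGGGCG, an EGR element, was in the windows of Btg2, Gadd45b and the downstream start of Sesn1 and in 5.55% of all, and TGTTTAC, a forkhead element, in Btg1, Mdm2 and the upstream start of Sesn1 and in 3.65% of all. TGANTCA (AP-1), the CArG box and the NF-kB consensus were in 0 of the 12 windows and in 7.81%, 1.63% and 4.51% of all. The E-box CACGTG was in Gadd45b and Gadd45g (7.15% of all windows), and TATAAA in Btg1, Gadd45b and Gadd45g (13.6%). CCAAT was in 10 and GGGCGG, the GC box, in 9 of the 12 windows, beside 37.4% and 35.7% of all. A match is a run of letters and not a measured binding site.

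**Figure D1:**
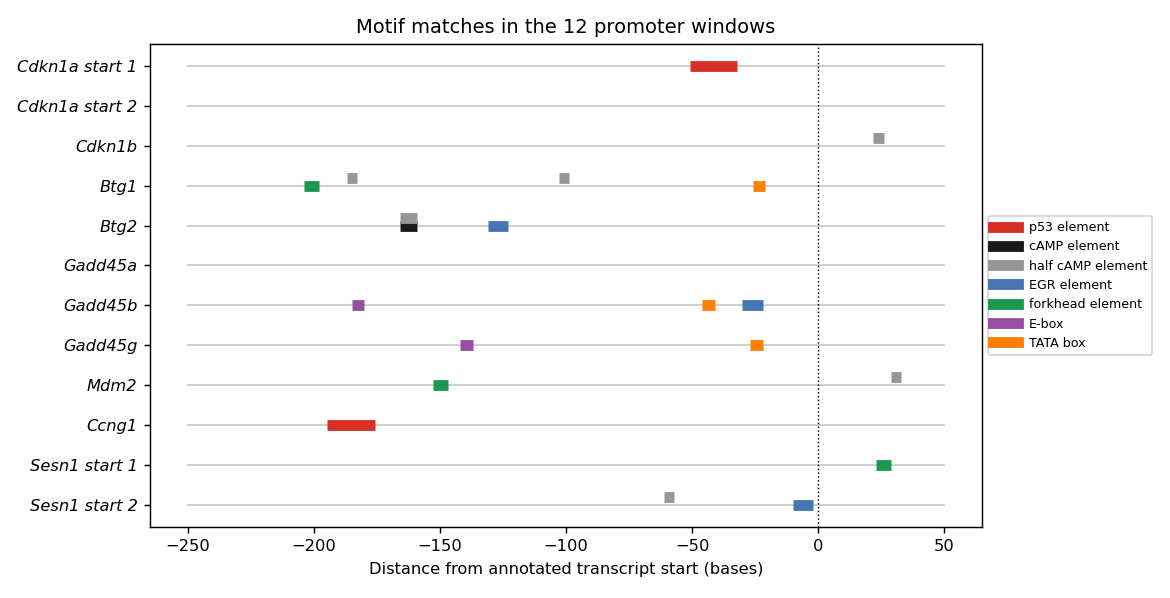
Positions of motif matches, in bases from the annotated transcript start, in the 12 promoter windows of the 10 genes; each coloured block spans 1 match, and grey blocks raised above the line are the core of the cyclic AMP element. The p53 element appears at the upstream start of Cdkn1a (-51 to -32) and in Ccng1 (-195 to -176) and in no other window shown. Matches of CCAAT and GGGCGG are not drawn.

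Total counts ran from 8975371 to 14116976 per library, and 3 counts, the limit used for detection, corresponded to 0.192 to 0.347 CPM (reads scaled to a common library size). All 11 fixed mast cell markers were above 1 CPM. They summed to 46995 to 48666 CPM in Control, 50135 to 52474 in BSA and 50013 to 51409 in Taxinine. Macrophage and monocyte markers, 7 of 7 in the table, summed to 183 to 196 CPM in Control, 179 to 182 in BSA and 135 to 142 in Taxinine. Basophil markers, 3 of 3 in the table, summed to 1317 to 1341, 1289 to 1336 and 1199.6 to 1215.5 CPM in the same order, and 1 of 7 neutrophil and 0 of 4 T cell markers had a value in the table used here. Eosinophil markers, 2 of 4 in the table, summed to 12.5 to 14.1 CPM in Control, 23.99 to 28.9 in BSA and 19.0 to 20.8 in Taxinine. Megakaryocyte markers, 3 of 3 in the table, summed to 1599 to 1768 CPM. Nearly all of this was Itga2b, with group means of 1623 to 1711 CPM, while Pf4 and Gp9 had group means of at most 1.47. A sum can thus rest on 1 gene. Whether other cells were present, and what part they have in the results, was not tested. No pair of libraries matched within counting noise.

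In untreated cells the order of levels, as CPM per kilobase of annotated exon, ran from Btg1 at 126 ± 1.06 (SD, n = 3) and Cdkn1a at 107 ± 6.22 down to Gadd45a at 4.996 ± 0.563 and Gadd45g at 2.29 ± 0.101. Between them stood Ccng1 (53.5 ± 2.97), Cdkn1b (45.7 ± 3.01), Mdm2 (38.9 ± 1.11), Sesn1 (13.1 ± 1.09), Btg2 (7.23 ± 0.0683) and Gadd45b (5.94 ± 0.436) in CPM per kilobase. No neighbours in this order overlapped between libraries. After antigen Cdkn1a (358 ± 14.6) and Btg1 (345 ± 14.0) stood at the top with overlapping libraries, and Btg2 had moved from the seventh to the fourth place at 69.9 ± 5.53. With taxinine the top pair no longer overlapped, at 371 ± 8.89 for Cdkn1a and 298 ± 4.92 for Btg1. All other levels below are CPM without division by length, scaled with TMM factors (a trimmed mean over genes), and differences are log2 fold changes ± SE.

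**Figure D2:**
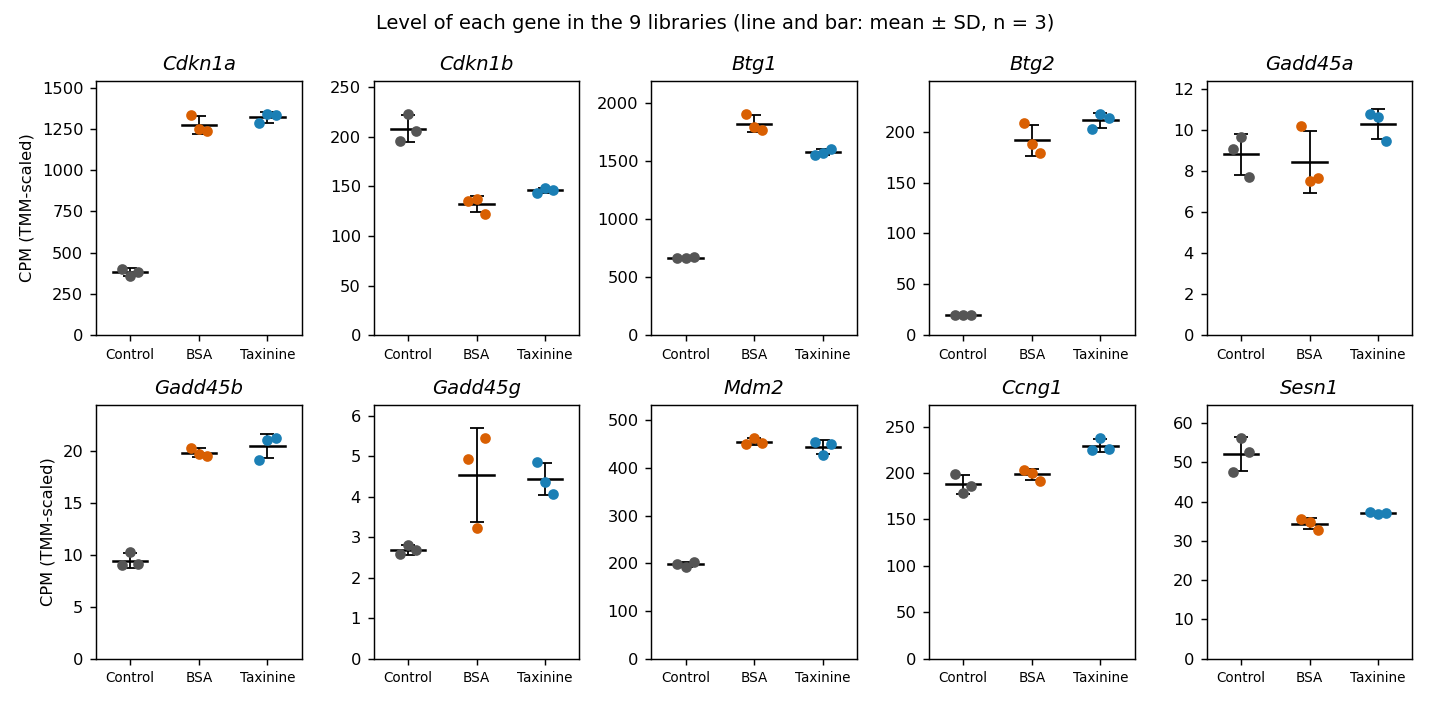
Level of each of the 10 genes in the 9 libraries, in TMM-scaled CPM on axes that start at 0; points are libraries and the line with its bar is the mean ± SD of 3. Btg2 stands at 19.6 to 20.0 CPM in Control and at 179 to 217 CPM in the 6 libraries given antigen, while Cdkn1b and Sesn1 are lower in those 6 libraries than in any Control library.

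The first comparison, BSA against Control, asks what sensitisation and antigen together changed. Of the 10 genes 6 rose (Btg2, Cdkn1a, Btg1, Mdm2, Gadd45b and Gadd45g) and 2 fell (Cdkn1b and Sesn1), while Gadd45a and Ccng1 did not pass the test, an adjusted p under 0.05 in edgeR's quasi-likelihood test. Among all genes 34.0% passed it, 16.2% higher and 17.8% lower, against 80% of these 10. The median difference was 0.91 for the 10 genes and -0.0041 for all genes. Because the 10 genes were chosen with earlier results of these data known, this contrast only describes them and is no test of p53 targets as a class. BSA and Control libraries lay fully apart for 8 of the 10 genes, 6 upward and 2 downward, and for 42.9% of all genes, 20.2% upward and 22.7% downward. The 6 rises and 2 falls held in all 17 other settings tried, which include leaving out each library in turn. Since the libraries hold bulk RNA, a change in the number of cells that express a gene and a change in RNA per cell cannot be told apart.

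Cdkn1a (GRCm38 chromosome 17, 29090976 to 29100727, plus strand) encodes p21, an inhibitor of cyclin-dependent kinases that also binds the replication clamp PCNA and is the best known p53 target. It gave 402, 359 and 384 CPM in the Control libraries (replicates 1 to 3, an order kept throughout), 1333, 1247.5 and 1239 in the BSA libraries, and 1283, 1339 and 1337 with taxinine. The Control libraries lay far below the other 6, and the BSA and Taxinine libraries overlapped. The difference between BSA (1273 ± 51.9, SD, n = 3) and Control (382 ± 22.1) was 1.74 ± 0.04, or 3.34-fold (edgeR's quasi-likelihood test, adjusted p = 2.37e-32).

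Cdkn1b (chromosome 6, 134920401 to 134925513, plus strand) encodes p27, a relative of p21 that holds resting cells out of the cycle. Its levels were 196, 223 and 205 CPM in Control, 135, 138 and 122 with antigen alone and 143, 148 and 146 with taxinine. It moved opposite to Cdkn1a: every library given antigen was lower than every Control library. The difference of BSA (132 ± 8.16) from Control (208 ± 13.7) was -0.66 ± 0.05 (edgeR's quasi-likelihood test, adjusted p = 9.59e-15).

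Btg1 and Btg2 belong to the BTG/TOB family of antiproliferative proteins, which recruit the CCR4-NOT complex that shortens messenger RNA tails. Btg2 (chromosome 1, 134075170 to 134079120, minus strand) is an immediate early gene and a p53 target. It was measured at 19.8, 19.6 and 20.0 CPM in Control, 208, 188 and 179 with antigen alone and 203, 217 and 214 with taxinine. This was the largest change among the 10 genes, 3.27 ± 0.06 or 9.67-fold (BSA 192 ± 15.2 against Control 19.8 ± 0.187; edgeR's quasi-likelihood test, adjusted p = 1.16e-36). Btg1 (chromosome 10, 96617006 to 96622809, plus strand), a translocation partner in lymphoid tumours in humans, stood at 667, 660.3 and 672 CPM in Control, 1904, 1794 and 1764 with antigen alone and 1551, 1568 and 1602 with taxinine. Its 3 groups did not overlap, and the Taxinine libraries lay between those of Control and BSA. Its rise after antigen was 1.45 ± 0.04 (edgeR's quasi-likelihood test, adjusted p = 4.27e-31).

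Mdm2 (chromosome 10, 117688875 to 117710758, minus strand), the ubiquitin ligase of p53, gave 198, 192 and 203 CPM in Control, 449, 463 and 452 with antigen alone and 454, 428 and 450.0 with taxinine. The Control libraries were all below the antigen libraries, which overlapped with each other. BSA (455 ± 7.11) exceeded Control (198 ± 5.67) by 1.20 ± 0.04 (edgeR's quasi-likelihood test, adjusted p = 1.23e-26). Trp53, the gene of p53 itself, did not pass the test, with 128 ± 5.49 in BSA against 129 ± 6.99 in Control and a difference of -0.01 ± 0.05 (edgeR's quasi-likelihood test, adjusted p = 0.937), whose sign turned with some settings. With taxinine Trp53 was at 128 ± 5.21 CPM, and its difference from BSA, -0.0017 ± 0.05, did not pass either.

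The GADD45 proteins are small stress sensors that bind PCNA, cell cycle kinases and the kinase MAP3K4 upstream of the p38 and JNK pathways. Gadd45b (chromosome 10, 80930073 to 80932204, plus strand) was at 8.99, 10.2 and 9.09 CPM in Control, 20.3, 19.7 and 19.5 with antigen alone and 19.1, 21.0 and 21.2 with taxinine. Its antigen libraries were about alike and all above Control, with a difference of 1.07 ± 0.10 for BSA (edgeR's quasi-likelihood test, adjusted p = 1.75e-12). Gadd45g (chromosome 13, 51846678 to 51848468, plus strand) had the fewest counts of the 10 genes, with 39, 44 and 41 counts in Control, 65, 41 and 60 with antigen alone and 42, 46 and 54 with taxinine. BSA replicate 2 was at 3.23 CPM beside 4.93 and 5.46 in the other BSA libraries, which left a narrow gap to Control at 2.58 to 2.82 CPM. The difference of 0.74 ± 0.19 passed (edgeR's quasi-likelihood test, adjusted p = 0.00206; at most 0.0375 over the other settings). Gadd45a (chromosome 6, 67035096 to 67037457, minus strand), the classic p53 target of the family, did not: 9.06, 9.66 and 7.72 CPM in Control overlapped 10.2, 7.49 and 7.64 in BSA. Its difference was -0.06 ± 0.13 with a 95% interval from -0.32 to 0.20. E230016M11Rik, a noncoding gene on the opposite strand with 255 counts in all beside 1049 for Gadd45a, overlaps it, and the strand setting of the counting is not given in the sources used here.

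Ccng1 (chromosome 11, 40748552 to 40755311, minus strand) encodes cyclin G1, a p53 target that acts on MDM2 through a phosphatase. It stood at 199, 178 and 186 CPM in Control and 204, 200.5 and 191 in BSA, with overlapping groups. The difference of 0.08 ± 0.05 did not pass (edgeR's quasi-likelihood test, adjusted p = 0.194). Its direction depends on the scaling: it was called lower, at -0.15, with total count scaling and also by limma on the log2 table. Sesn1 (chromosome 10, 41809935 to 41908424, plus strand) encodes a sestrin, which restrains the growth kinase mTORC1 and is induced by p53 and FOXO factors. It fell from 47.5, 56.2 and 52.7 CPM in Control to 35.6, 34.8 and 32.8 in BSA, with no overlap. The difference was -0.60 ± 0.07 (edgeR's quasi-likelihood test, adjusted p = 5.09e-10).

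**Figure D3:**
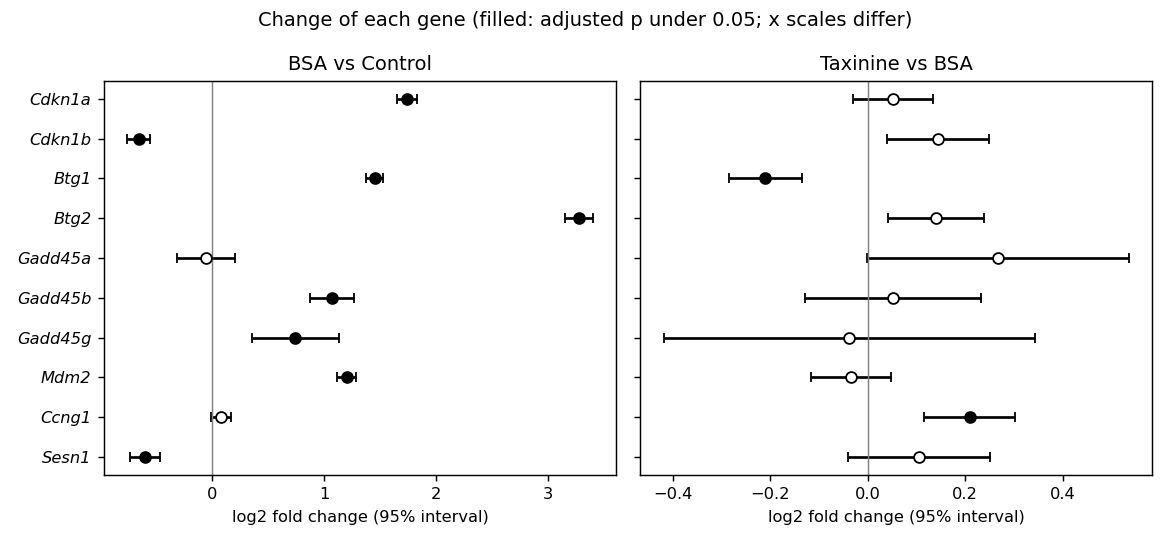
Log2 fold change of each gene with its 95% interval, BSA against Control on the left and Taxinine against BSA on the right, on different x scales; filled points passed the test. On the left 6 filled points are above 0 and 2 below, and on the right only Ccng1, at 0.21, and Btg1, at -0.21, are filled.

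Scaling bears on the smaller of these differences. Total count scaling in place of TMM moved the median of all genes in BSA against Control to -0.23 and the share of higher genes among those called from 47.6% to 13.6%. The members' split then became 6 higher and 3 lower, with Ccng1 added to the lower genes. The fold changes of the 6 higher genes stayed above 0 in every setting, from 0.39 for Gadd45g to 2.99 for Btg2 at their lowest. These lowest values of Gadd45g and Btg2 come from the log2 table, in which that shift is already contained.

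**Figure D4:**
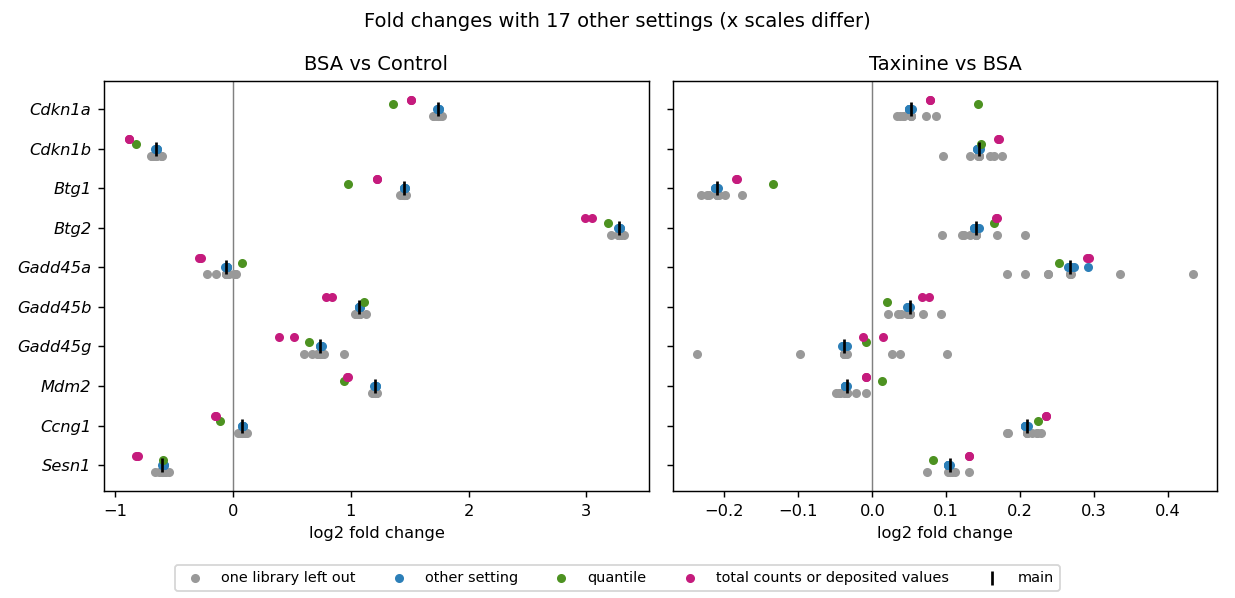
Log2 fold change of the 10 genes in the main test (black bar) and in 17 other settings (points), for BSA against Control and Taxinine against BSA, on different x scales. Ccng1 lies on both sides of 0 on the left, while Btg1 on the right stays between -0.23 and -0.13 in every setting.

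The second comparison, Taxinine against BSA, asks what taxinine changed in cells given antigen, and it shares the BSA libraries with the first comparison. Btg1 fell and Ccng1 rose, and the other 8 genes, the CDK inhibitor gene Cdkn1a, Btg2 and Mdm2 included, did not pass. That is 1 higher and 1 lower of 10, or 20%, beside 6.98% of all genes (2.86% higher and 4.12% lower). Without Control replicate 2 the members called higher were 3, and without BSA replicate 1 or 2 they were 2, while the count over all genes went from 1055 to 659, 616 and 699 without Taxinine replicates 1, 2 and 3. With total count scaling the split was 3 higher and 1 lower, and over all genes the share of higher calls went from 40.9% to 57.6%. The median difference was 0.08 for the 10 genes and 0.0021 for all genes. The groups were apart in 4 of the 10, 3 higher and 1 lower, and in 23.9% of all genes, 11.5% higher and 12.4% lower.

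Btg1 dropped from 1821 ± 73.7 CPM in BSA to 1574 ± 25.9 in Taxinine, a difference of -0.21 ± 0.04 (edgeR's quasi-likelihood test, adjusted p = 0.000148). All 3 Taxinine libraries were below all 3 BSA libraries and far above Control, and the call held in all 17 other settings. Ccng1 was at 225, 238 and 225 CPM in Taxinine, above every BSA and every Control library. Its difference from BSA (229 ± 7.24 against 198 ± 6.42) was 0.21 ± 0.05, or 15.6% (edgeR's quasi-likelihood test, adjusted p = 0.00238). This call was also kept in all 17 settings. Against Control, Ccng1 was higher with taxinine by 0.29 ± 0.05 (edgeR's quasi-likelihood test, adjusted p = 2.22e-06), a call that was lost with total count scaling (0.09; edgeR's quasi-likelihood test, adjusted p = 0.118) or by limma on the log2 table (0.09; adjusted p = 0.108). The lower sums of the macrophage and basophil markers in the same libraries, given above, stand beside these differences. Mast cell sums overlapped between BSA and Taxinine. Of the 11 mast cell markers 0 were called higher and 2 lower with taxinine than in BSA, beside 2.86% and 4.12% of all genes. The lower ones were Gata2 (-0.16 ± 0.04) and Mitf (-0.19 ± 0.06). The largest part of the macrophage sum was Ccr2, at 112, 88.2 and 57.0 CPM in Control, BSA and Taxinine. Lyz2 (14.6, 21.8 and 15.0) was called lower with taxinine than in BSA (-0.52 ± 0.10) but not than in Control. Adgre1 (44.2, 49.8 and 47.5) passed in neither comparison (-0.07 ± 0.06 against BSA). In the basophil sum Cd200r3 (770, 699 and 655) fell after antigen, while Mcpt8 (77.4, 91.8 and 71.8) and Prss34 (484, 524 and 483) rose after it. With taxinine the mean of each was lower than in BSA, but only Mcpt8 passed (-0.35 ± 0.06). Of the pair of genes with a p53 element in the windows shown above, Ccng1 passed here and Cdkn1a did not, while after antigen the reverse held; whether these genes differ in response was not tested.

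For 2 further genes the test came close. Cdkn1b differed by 0.14 ± 0.05 and had no overlap between groups (edgeR's quasi-likelihood test, adjusted p = 0.0865, from 0.0291 to 0.38 over the other settings). Btg2 differed by 0.14 ± 0.05 with overlapping groups (edgeR's quasi-likelihood test, adjusted p = 0.073, from 0.00937 to 0.349 over the other settings). Each was called higher in 4 of the 17 settings. Cdkn1a differed by 0.05 ± 0.04, with a 95% interval from -0.03 to 0.13 (called only after quantile normalisation, at 0.14), and Mdm2 by -0.03 ± 0.04, with an interval from -0.12 to 0.05. Sesn1 gave 37.3, 36.9 and 37.0 CPM in Taxinine, all just above the BSA libraries, with a difference of 0.10 ± 0.07 that did not pass. The 3 GADD45 genes had wider intervals, from -0.13 to 0.23 for Gadd45b, -0.42 to 0.34 for Gadd45g and -0.0010 to 0.54 for Gadd45a (Taxinine libraries at 10.8, 10.6 and 9.44 CPM).

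Against Control, Taxinine had 7 genes higher and 2 lower, where 33.1% of all genes passed (15.9% higher and 17.2% lower), and total count scaling left 6 and 2. The groups were apart for the same 7 and 2 genes and for 43.7% of all genes, 20.9% upward and 22.8% downward. This comparison shares its Control libraries with the first one. Side by side, the differences from Control with and without taxinine were 1.79 and 1.74 for Cdkn1a, 3.41 and 3.27 for Btg2, 1.24 and 1.45 for Btg1, 1.17 and 1.20 for Mdm2, 1.12 and 1.07 for Gadd45b, 0.70 and 0.74 for Gadd45g, -0.51 and -0.66 for Cdkn1b and -0.49 and -0.60 for Sesn1. Gadd45a, at 0.21 ± 0.13, passed in none of the 3 comparisons, although limma after quantile normalisation called it higher here (0.33; adjusted p = 0.0442).

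Of 29 measured targets outside the 10 genes, 5 were called higher and 7 lower in BSA than in Control, with a median difference of -0.18; with total count scaling the split was 2 and 16. Over all genes the shares called were 16.2% higher and 17.8% lower. The 5 became 3 without Control replicate 2, Control replicate 3 or BSA replicate 1 and 2 without BSA replicate 2, and the 7 became 4 without BSA replicate 1. Pmaip1, which encodes the death-promoting protein NOXA, rose from 57.6 ± 1.44 to 150 ± 12.4 CPM (1.38 ± 0.05), and Plk2, a Polo-like kinase, from 1.22 ± 0.280 to 4.64 ± 0.482 (1.93 ± 0.22). Rrm2b, a ribonucleotide reductase subunit, fell by 0.58 and Pidd1, a death domain protein, by 0.51 on the log2 scale. With taxinine 4 of the 29 were higher than in BSA and 1 was lower, beside 2.86% and 4.12% of all genes. Pmaip1 rose further, to 180.2 ± 5.98 CPM (0.27 ± 0.05), and Trp53inp1, a p53-induced nuclear protein, went from 122 ± 7.71 to 157 ± 2.71 (0.37 ± 0.05). In Control Trp53inp1 stood at 145 ± 4.49 CPM. It was called lower after antigen (-0.25 ± 0.05), and with taxinine it did not pass against Control (0.11 ± 0.05). Eda2r, a death receptor family member, gained 0.48 ± 0.11 over BSA. The calls of Pmaip1, Trp53inp1 and Eda2r against BSA held in all 17 settings. Perp, a desmosomal p53 target, was lower by -0.60 ± 0.17 but lost its call without BSA replicate 3, Taxinine replicate 1 or Taxinine replicate 2.

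Among 12 measured regulators of p53, 2 were called higher, the kinase genes Hipk2 (0.24 ± 0.07) and Atm (0.23 ± 0.07), and 1 lower, the phosphatase gene Ppm1d (-0.24 ± 0.07), in BSA against Control, where 34.0% of all genes passed; with total count scaling 0 were higher and 6 lower. Hipk2 lost its call without Control replicate 2, Atm without Control replicate 2 or BSA replicate 2, and Ppm1d without BSA replicate 1; without Control replicate 1 the split was 4 and 2, and without Taxinine replicate 1 there were 2 lower. In Taxinine against BSA edgeR's quasi-likelihood test called 0 of 12 (2 had an unadjusted p under 0.05), beside 6.98% of all genes, and each of the 17 other settings, DESeq2 included, also called 0.

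The antiproliferative family around Btg1 and Btg2 had further rises after antigen. Tob2 rose from 81.4 ± 5.36 to 311 ± 16.2 CPM (1.94 ± 0.05), Tob1 from 11.7 ± 1.12 to 36.5 ± 0.931 (1.64 ± 0.08) and Btg3 from 8.71 ± 0.591 to 14.7 ± 0.512 (0.76 ± 0.11). Of 11 measured genes (TOB, BTG and CCR4-NOT genes and the partner gene Prmt1), 5 were higher and 3 lower, beside 16.2% and 17.8% of all genes. Among the lower ones was the deadenylase subunit gene Cnot8 (-0.29 ± 0.06). Total count scaling gave 3 and 5. Taxinine had 2 of these 11 higher than BSA and 0 lower, beside 2.86% and 4.12% of all genes. Tob1 rose again, to 59.2 ± 3.33 CPM (0.70 ± 0.07; edgeR's quasi-likelihood test, adjusted p = 3.78e-10), opposite to Btg1, and kept the call in all 17 settings. Tob2 gained 0.16 ± 0.05 and lost its call without BSA replicate 2 or 3 or Taxinine replicate 2 or 3, and 1 gene of the list was called lower without BSA replicate 2.

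Among other CDK inhibitors, Cdkn2b, which encodes p15, rose after antigen from 1.5996 ± 0.684 to 4.88 ± 0.128 CPM (1.598 ± 0.22). The list had 3 of 5 higher and 0 lower, 1 of each with total count scaling, and 1 higher without BSA replicate 1. Over all genes 16.2% were higher and 17.8% lower after antigen. Cdkn2d (0.21 ± 0.07) and Cdkn3 (0.38 ± 0.15) made up the 3, and each lost its call in several settings: Cdkn2d without Control replicate 1 or BSA replicate 1, and Cdkn3 without Control replicate 2 or 3, BSA replicate 1 or 2 or Taxinine replicate 1. In Taxinine Cdkn2d was lower than in BSA by -0.27 ± 0.08, a call lost without BSA replicate 1 or Taxinine replicate 1 or 2. Of 14 CDK, cyclin and partner genes 4 were higher and 5 lower in BSA than in Control, where 34.0% of all genes passed. The split was 1 and 8 with total count scaling, and 3 were lower without BSA replicate 3. Pcna, the replication clamp that p21 binds, rose from 303 ± 6.93 to 906 ± 26.0 CPM (1.58 ± 0.04). Skp2, which encodes the ubiquitin ligase subunit that degrades p27, fell by 0.81, Ccne2, a cyclin E gene, by 0.64 and Cdk6 by 0.22 on the log2 scale. In Taxinine against BSA 0 of these 14 were higher and 1 lower, the cyclin gene Ccnd3 at -0.27 ± 0.05, beside 6.98% of all genes. With total count scaling 1 was higher and 1 lower, and 2 and 1 were called by limma on the log2 table.

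**Figure D5:**
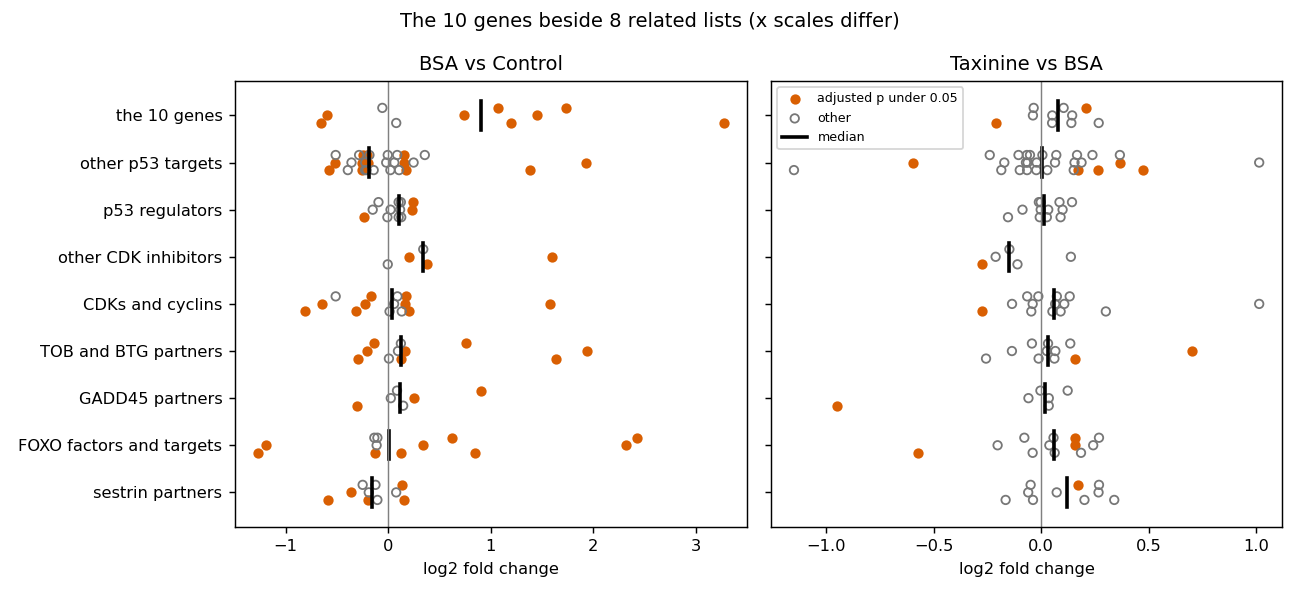
Log2 fold change of every measured gene of 8 related lists below the 10 genes, BSA against Control on the left and Taxinine against BSA on the right, on different x scales; orange points passed the test and the bar is the median. The median of the 10 genes is 0.91 on the left, and that of the other p53 targets is -0.18.

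Likeness over the 9 libraries was described by Pearson's r of log2 CPM among 8135 genes of at least 10 CPM; the points share the same 3 groups, so r mostly reflects differences between groups. Cdkn1b and Sesn1 were each other's nearest gene, with r = 0.992. Btg1 lay nearest to Rgs1 (r = 0.9994), a regulator of G-protein signalling, and Tnf (0.9993). Btg2 lay nearest to Plek (0.9994) and Vegfa (0.9993), Cdkn1a to Arf4 (0.9996) and Nabp1 (0.9995), Mdm2 to Havcr2 (0.9991) and Tax1bp1 (0.999), and Gadd45b to Slc7a5 (0.9967) and Fam110c (0.9964). Ccng1 had the lowest value for its nearest gene, Amd1, at r = 0.9826.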

How the data were processed

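Stranded, paired-end polyA libraries of 101-base reads were prepared per the labels' protocols. STAR 2.7.0f, limma 3.11 and the builds mm10 and GRCm38 are named per the submitters' processing notes; for the counting program, its strand setting and the annotation nothing is stated. In the deposited file of counts made by the authors all values are whole and column totals unequal, so it was used as unscaled, although its name speaks of normalisation. The deposited log2 values equal log2(CPM + 1) from those totals to within 5e-05. The sparsest gene was counted in 4 libraries.

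Counts of all 15109 genes were fitted with edgeR 4.0.16 (TMM factors, quasi-likelihood test, 1 fit over 9 libraries, no replicate term, no further filter) in R 4.3.3, with Benjamini-Hochberg adjustment over all genes and a call at an adjusted p under 0.05. SE was derived from the fold change and its F statistic. The procedure was tested on simulated data. Alternatives were other size factors, total count scaling, quantile normalisation and the deposited values with limma 3.58.1, DESeq2 1.42.0, edgeR's expression filter, fits of the compared groups alone, a replicate block and leaving out each library. Coordinates and exon lengths are from GENCODE M21 (GRCm38), in which all 10 identifiers matched; promoter sequences are from RefSeq (GRCm38.p6).

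The 10 members and the related lists were chosen with earlier results of these data known. From each list up to 4 called genes with the smallest p in each of the first comparisons were named, and Trp53 always. For likeness, the 2 genes with the highest r were taken for each member of at least 10 CPM. Some genes that the lists hold are given only in counts. Depth was 8975371 to 14116976 counts per library, and detection limits reflect counting error alone, as molecules carried no tags. All groups have 3 libraries.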

Additional observations from a re-analysis of the deposited data

How the results depend on the processing

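Of 510 values for the 10 genes (30 results in 17 other settings), 486 kept direction and side of the threshold. In BSA against Control the members gave 6 higher in every setting and 2 or 3 lower. The number of genes called over the whole table rose there from 5144 to 7977 with total count scaling and to 7852 with limma on the log2 table, neither of which applies TMM. Members called higher in Taxinine than in BSA numbered 3 with total count scaling, 3 by limma on the log2 table, 2 with limma after quantile normalisation, and 1 to 3 when 1 library was left out (3 without Control replicate 2, 2 without BSA replicate 1 or 2); the cause was not tested. Without single libraries the whole-table count in that comparison ran from 616 to 1281, against 1055, and was 659, 616 and 699 without Taxinine replicates 1, 2 and 3. Ccng1 in BSA against Control turned to -0.15 with total count scaling and also by limma on the log2 table and to -0.11 after quantile normalisation. Gadd45a there, called in none of the settings, turned to 0.078 after quantile normalisation and ran from -0.22 to 0.029 when 1 library was left out. In Taxinine against BSA, Mdm2 was at 0.014 after quantile normalisation, and Gadd45g at 0.015 by limma on the log2 table and from -0.24 to 0.10 with 1 library left out. Trp53 crossed 0 in BSA against Control with DESeq2's size factors in edgeR (0.0023), with DESeq2 (0.0024) and over the omission of single libraries (-0.0484 to 0.029), and in Taxinine against BSA with total count scaling (0.024), quantile normalisation (0.0040), limma on the log2 table (0.025) and over the omissions (-0.037 to 0.029). Total count scaling (-0.23) and limma on the log2 table called Trp53 lower in BSA than in Control. After antigen, Cdkn2d and Sesn2 turned to -0.0191 and -0.076 with total count scaling and to -0.021 and -0.072 by limma on the log2 table. Same-numbered libraries did not deviate together (correlations from -0.108 to 0.0863), so the numbers were not taken as pairs; with the replicate block 5078, 1093 and 4972 genes were called in BSA against Control, Taxinine against BSA and Taxinine against Control, and the members' counts of 6 and 2, 1 and 1, and 7 and 2 did not change. Depth limits Gadd45g most, whose counting error alone is 15.6% of its mean per Control library.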

Other observations

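Genes tied to FOXO factors, which are known to act on Cdkn1b and Sesn1, moved in both directions after antigen. Of 12 measured, 6 were higher and 3 lower in BSA than in Control, and 4 and 7 with total count scaling. Over all genes 16.2% were higher and 17.8% lower. Klf2, a transcription factor, rose from 32.9 ± 1.86 to 177 ± 2.51 CPM and Il7r, a cytokine receptor gene, from 4.16 ± 0.518 to 20.9 ± 0.978. Txnip, an inhibitor of thioredoxin and of glucose uptake, fell from 1043 ± 55.8 to 434 ± 9.28 CPM, and Pik3ip1, a negative regulator of PI3 kinase, from 144 ± 17.1 to 63.5 ± 3.49. With taxinine 2 of the 12 were higher than in BSA and 1 lower, beside 2.86% and 4.12% of all genes. The 1 lower gene became 2 without Control replicate 1 or 2. Il7r was at -0.57 ± 0.10 and kept its call in all 17 other settings. Txnip, at 0.16 ± 0.04, lost its call without BSA replicate 1 or Taxinine replicate 2 or 3, and Ccng2, a cyclin G relative, at 0.16 ± 0.05, lost it in 8 of 17 settings, among them the omission of Control replicate 3, BSA replicate 1 or 3 and each Taxinine library.

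Sestrins act on mTORC1 through the GATOR complexes. As a background for the counts that follow, 16.2% of all genes were higher and 17.8% lower after antigen. In Taxinine against BSA these shares were 2.86% and 4.12%. Of 10 sestrin and GATOR genes 2 were higher and 3 lower after antigen (0 and 7 with total count scaling; 1 higher without Control replicate 1 or 2 or BSA replicate 1 or 2, and 0 without replicate 3 of either group), with Wdr24 at -0.59 ± 0.08, Seh1l at -0.20 ± 0.05 and Nprl2 at -0.36 ± 0.11, the last of which lost its call without BSA replicate 3, with DESeq2 and after quantile normalisation. Sesn2, a stress-induced sestrin, was at 0.15 ± 0.05 after antigen and at 0.17 ± 0.06 with taxinine against BSA, and kept the first call in 9 and the second in 8 of 17 settings, losing the first without Control replicate 2 or 3 or BSA replicate 2 or 3 and the second without Control replicate 3, BSA replicate 1 or 2 or any Taxinine library; the list had 2 higher in the second comparison without Control replicate 1 or 2. Among 6 partners of the GADD45 proteins, 2 rose and 1 fell after antigen (1 and 2 with total count scaling): Map2k3, a kinase of the p38 pathway, rose from 233 ± 1.78 to 436 ± 1.50 CPM, Map3k4 by 0.25 ± 0.08 with a call that was lost without BSA replicate 3, and Map2k7, a kinase of the JNK pathway, was at -0.30 ± 0.06. Taxinine had 0 of the 6 higher than BSA and 1 lower, Gadd45gip1 at -0.95 ± 0.25, a call lost without BSA replicate 3 or Taxinine replicate 1 or 3. The level of Gadd45gip1 was low, at 3.37 ± 0.489 CPM in BSA and 1.73 ± 0.484 in Taxinine.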
